A study of Mus musculus with 12 samples.

Results

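The genes described are those of the small (40S) subunit of the cytosolic ribosome, chosen by symbol: every symbol made of Rps, a number and at most one of the letters a, l or x, plus Rpsa and Fau. The rule found 33 members among the 26214 gene symbols of the count table, and 31 of them had enough counts to be tested. It used names alone and no measured value. The libraries came from polyA RNA of the immortalized mouse line mLTC-1, derived from Leydig cells, which make androgens in the testis. There were 6 control libraries from cells given the vehicle DMSO and 6 from cells given 100 µM MSNBA, which the submitters present as an inhibitor of Glut5, a fructose transporter, all taken after 24 h. All 12 share one cell line and one serum-supplemented RPMI medium, and no second line was part of the design. Whether the replicates were cultured separately is not in the labels, nor could the group labels be checked against another source; p-values therefore reflect sample-to-sample spread that may be technical in part or whole.

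The small subunit is an RNA and protein particle that binds the messenger RNA, holds the initiator transfer RNA and checks the match between codon and anticodon. Its proteins fall into a head, which contacts the transfer RNAs, and a body with a platform, which carries the decoding site and the exit of the messenger RNA channel. Mammalian ribosomal protein mRNAs begin with a terminal oligopyrimidine (TOP) tract, through which their translation is tied to mTOR signalling. Nearly every ribosomal protein gene has left processed copies across the genome, so that its reads can match more than one place.

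The copies bear on what a count of a member means, and the sequences of the closest pairs are shown for that reason. The first 90 bases of the coding sequence are given from the start codon, 5′ to 3′, from GENCODE M21 transcripts, with capitals where a copy differs from the member printed above it.
Rps27: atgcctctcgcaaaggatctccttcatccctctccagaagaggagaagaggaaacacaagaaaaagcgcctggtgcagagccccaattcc
Rps27rt: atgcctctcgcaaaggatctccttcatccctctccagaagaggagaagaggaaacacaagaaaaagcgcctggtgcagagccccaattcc
Rps27l: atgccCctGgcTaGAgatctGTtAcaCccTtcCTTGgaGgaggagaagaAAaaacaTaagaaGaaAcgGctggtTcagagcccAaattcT
Rps15a: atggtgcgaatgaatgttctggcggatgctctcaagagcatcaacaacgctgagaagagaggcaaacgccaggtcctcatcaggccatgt
Rps15a-ps6: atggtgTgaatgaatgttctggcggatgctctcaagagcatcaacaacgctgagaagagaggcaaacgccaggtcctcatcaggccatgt
Rps27, a zinc-binding protein of the platform, and Rps27rt differed at 0 of 255 coding bases. Rps27l, the paralogue of Rps27 known as a p53 target, differed from Rps27 at 61 of 255 coding bases but at only 3 amino acids, and 24 of those bases lie in the stretch shown. Rps15a and the copy Rps15a-ps6 differed at 5 of 393 coding bases, 1 of them in the stretch shown. By these letters a coding read of Rps27 cannot be told from one of Rps27rt.

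Over the 32 members with a protein-coding transcript, a median of 88.9% of all coding words of 50 bases also occurred in a transcript of another annotated gene. The share was over 50% in 26 members. Rps6, the S6 kinase substrate of the body, had every word shared, and its copy Rps6-ps4 was identical over all 750 coding bases. Rps6 had 9 counts in the controls and 26 in MSNBA, with at most 14 in any library, and was not tested. Per length it had 46.7 counts per kb of coding sequence, against a median of 6938 over the members. Rps28, a small head protein, also had every word shared and yet had 65386 counts per kb, the highest of the members. Not divided by length, Rps6 had 35 counts and Rps28 had 13731. Whether counts in these data scale with length is not given in the sources used here. The part of shared sequence in the level of Rps6 was not tested.

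**Figure D1:**
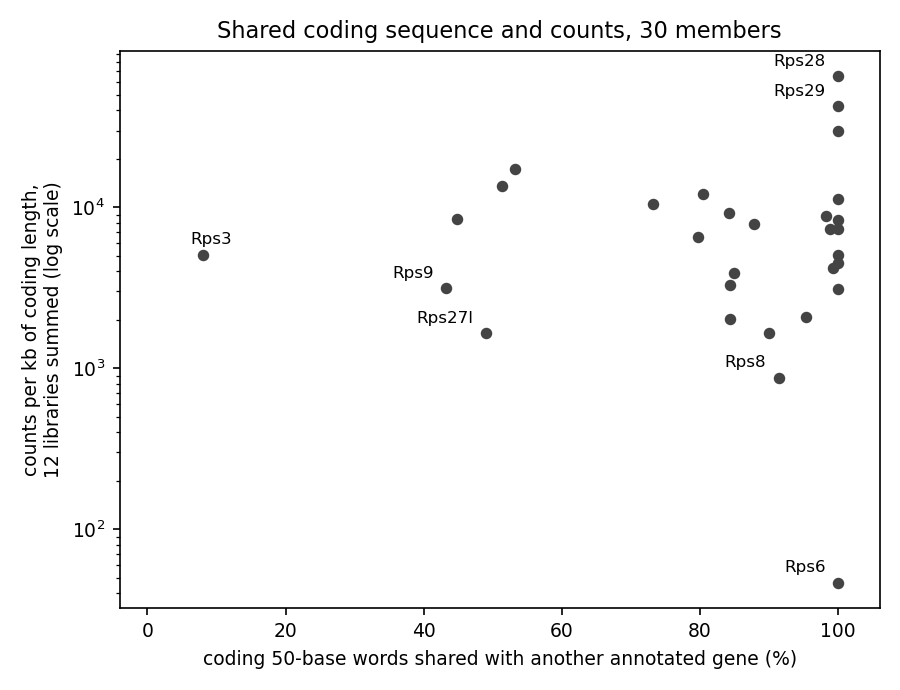
Each point is 1 of 30 members, with the percentage of its coding words of 50 bases found in another annotated gene on the horizontal axis and its counts per kb of coding length, summed over 12 libraries, on a logarithmic vertical axis. Rps6 and Rps28 both stand at 100% shared, with 46.7 and 65386 counts per kb. Whether counts scale with length here is not known.

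The other member not tested was Rps4l, which had 8 counts in the controls and 2 in MSNBA. Its X-linked relative Rps4x, a body protein, had 1305 counts. By RefSeq (GRCm38.p6), all 33 members were placed, on 15 chromosomes, with 9 on chromosome 7. The marker Rps23 lies on chromosome 13 from 90923122 to 90924732. Rps18 shares exon bases with Vps52, a tested gene on the opposite strand. The strand used in counting is not given in the sources used here, so reads within the shared bases may have been counted for either gene.

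The labels give 2 groups of 6, and every comparison rests on them, but the columns of the count table stand in an order that reads as 3 sets of 4. The first set holds controls 1, 3, 5 and 6, the last holds MSNBA 1, 2, 4 and 6, and the set between them holds controls 2 and 4 beside MSNBA 3 and 5. By library number the sets are 1, 4, 7 and 10, then 2, 5, 11 and 8, then 3, 6, 9 and 12. Whether the group labels of the middle set are right could not be checked. What the order stands for is not given in the sources used here. It entered no test, but values without the 4 libraries of the mixed set are given beside the main counts.

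Library totals ran from 59113 to 234225 counts in the controls and from 94179 to 657251 in MSNBA, the deepest being MSNBA 1. A filter on low counts left 2614 genes, which held 79.2% of all counts. Leydig cell markers were present, with all 7 of 7 genes tested and 8875 and 8391 CPM (a unit that sets every library to the same total) pooled over the control and MSNBA libraries. No marker of macrophages (6 genes) or of endothelial, Sertoli, germ or peritubular and fibroblast cells (5 genes each) had enough counts to be tested, though each had a count in some library. The summed germ cell markers ran from 26.0 to 135 CPM in control and from 25.9 to 66.1 CPM in MSNBA libraries, and the peritubular and fibroblast markers from 41.2 to 84.6 and from 16.7 to 69.7 CPM. The macrophage, endothelial and Sertoli markers were lower, at 14.7, 13.2 and 10.3 CPM pooled over controls and 13.1, 11.3 and 3.13 CPM over MSNBA. The part of such cells in the values below was not tested. In RNA pooled over cells, a change in how many cells make a transcript and in how much each makes cannot be told apart.

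The comparison asks how the small subunit genes of these Leydig cells differ on exposure to MSNBA. No member passed the adjusted threshold of 0.05 in the edgeR quasi-likelihood test, in which 0.0765% of all tested genes passed. The members nevertheless lay mostly on one side: 27 of 31 had a log2 fold change (MSNBA over control) above 0 and 4 below, with a median of 0.17 and a range from -0.14 to 0.45. Without control 6 the median was 0.11. Over all tested genes 48.5% were above 0, and the median was -0.0082. At an unadjusted p under 0.05, 9 of 31 members (29.0%) were higher in MSNBA, against 4.17% of all tested genes. At the same p, 0 members were lower, against 4.78% of all tested genes. Among the 9 were Rps12, Rps13, Rps15a, Rps20, Rps23, Rps24, Rps26 and Rps27a. Members were more deeply counted than other genes, with a median of 2923 counts against 305 and a median standard error of 0.11 against 0.22, so that a given fold change reaches a lower p among them. Without the low-count filter 19 of 33 members were higher at that p, against 3.81% of 19576 genes, and the median was 0.32, but the 2614 genes as a whole then had a median of 0.14. Without the 4 libraries of the mixed column set, 3 of 31 members were higher at that p, among them Rps23 and Rps4x, against 4.17% of 2734 genes, and 1, Rpsa, was lower, against 3.58%. The median was then 0.12, with 26 of 31 members above 0.

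Limma-voom called 0 members at the adjusted threshold, where 0.0383% of genes passed, and found the same 9 members higher at an unadjusted p under 0.05, against 4.09% of genes. DESeq2 called 0 members, where 0.613% of the 979 genes given an adjusted p passed. At an unadjusted p under 0.05, DESeq2 placed 11 of 33 members higher, against 0.838% of its 19572 genes, most of which have few counts, and 1 member lower, Rps4l, with 8 and 2 counts, against 1.18% of those genes.

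**Figure D2:**
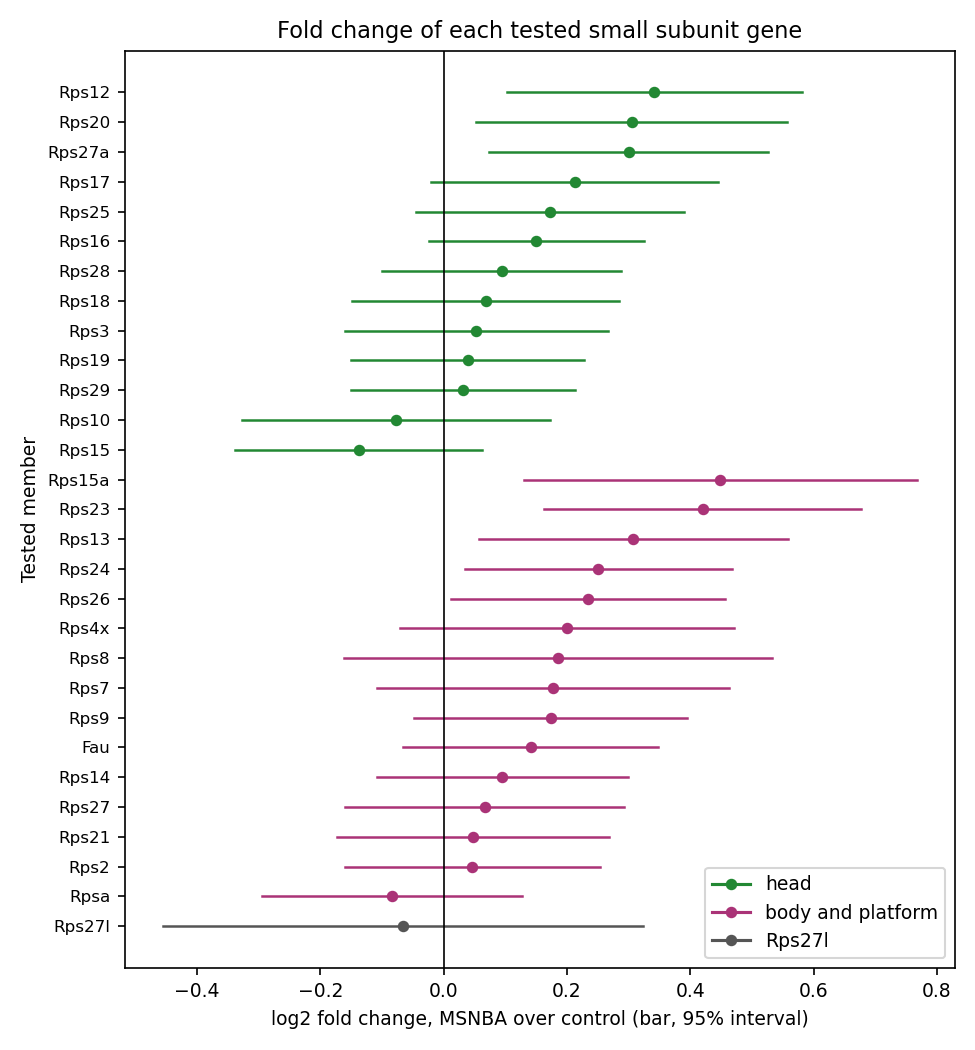
Points are the log2 fold changes of 29 tested members, MSNBA over control, from 6 libraries per group, and bars are their 95% intervals; colours mark head, body and platform, and Rps27l. The points run from -0.14 (Rps15) to 0.45 (Rps15a), and 25 lie above 0.

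Among the proteins of the body and platform, Rps23, which sits at the decoding centre, had the lowest p of all members. Its level in the controls ran from 483 over a median of 643 to 703 normalized CPM, which are CPM over the tested genes with scaling factors between libraries, and in MSNBA from 695 over 838 to 923. In 5 of 6 MSNBA libraries it was above every control, and the exception was MSNBA 1, at 695, below control 6. The means were 607 ± 95.2 and 821 ± 78.0 normalized CPM (SD, n = 6 per group), a log2 fold change of 0.42 (SE 0.13, edgeR adjusted p = 0.221). As a fold this is 1.34, with a 95% interval from 1.12 to 1.60. Without the mixed column set the log2 fold change of Rps23 was 0.34 (edgeR adjusted p = 0.597).

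Rps15a, a body protein close to the platform, had the largest log2 fold change among the members, 0.45 (SE 0.16, edgeR adjusted p = 0.318). Its controls ran from 192 over a median of 362 to 447 normalized CPM and its MSNBA libraries from 431 over 458 to 529. The groups overlapped, since control 2 at 447 lay above MSNBA 1 and 2, and control 4 was the lowest, with 12 counts. Without control 4 the log2 fold change was 0.35, and without the mixed column set it was 0.32. With the counts of its copies Rps15a-ps4 and Rps15a-ps6 added it was 0.36 (edgeR adjusted p = 0.384). In that fit Rps23, with its own copy added, was higher at 0.43.

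Rps13, a body protein contacting the large subunit, was at 867 ± 185 and 1088 ± 88.4 normalized CPM, and Rps24, a body protein mutated in some cases of Diamond-Blackfan anaemia, at 1259 ± 111 and 1498 ± 172 (SD, n = 6 per group). Their log2 fold changes were 0.31 and 0.25 (edgeR adjusted p = 0.401 and 0.446). For Rps13 the value was 0.098 with libraries thinned to equal depth (edgeR adjusted p = 0.882), and 0.20 without the mixed column set, where Rps24 was at 0.16. In each, every MSNBA library lay above the control median, though 3 (Rps13) and 4 (Rps24) lay above all controls. Rps4x had a log2 fold change of 0.20 (edgeR adjusted p = 0.644); control 2, at 960 normalized CPM, was its highest library of all 12, and the value was 0.32 without control 2, 0.11 without control 6 and 0.37 without the mixed column set. With no low-count filter Rps4x was at 0.35, Rps24 at 0.40, Rps27a at 0.45, Rps28 at 0.24 and Rps27 at 0.22, where the median of the 2614 genes was 0.14. The body and platform list includes Rps3a1, though it is no member. Of its 17 tested genes 16 were above 0 and 1 below, with a median of 0.18. At an unadjusted p under 0.05, 6 (35.3%) were higher, against 4.17% of all tested genes.

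In the head, Rps12 had the largest value. Its controls ran from 943 over a median of 1509 to 1543 normalized CPM and its MSNBA libraries from 1374 over 1814 to 2118. Control 2 was the lowest library, MSNBA 1 lay below 4 of them, and the other 5 MSNBA libraries lay above all controls. The log2 fold change was 0.34 (SE 0.12, edgeR adjusted p = 0.314), 0.26 without control 2 and 0.20 without the mixed column set.

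Rps27a, made as a fusion with ubiquitin that is then cleaved, ran from 1047 over 1106 to 1300 normalized CPM in controls and from 1084 over 1416 to 1618 in MSNBA, with 4 of 6 MSNBA libraries above all controls. Its log2 fold change was 0.30 (SE 0.11, edgeR adjusted p = 0.373), and 0.21 without the mixed column set. Rps20, another head protein, was at 672 ± 69.7 and 836 ± 115 normalized CPM (SD, n = 6 per group), a log2 fold change of 0.30, with 5 of 6 MSNBA libraries above all controls. The value for Rps20 was 0.25 without the mixed column set. Rps28 had the most counts of any member, 13731, and a log2 fold change of 0.09 (SE 0.096, edgeR adjusted p = 0.807), its lowest library being MSNBA 1. The value for Rps28 was 0.23 with depth in the model (edgeR adjusted p = 0.519), 0.17 without MSNBA 1, 0.15 without control 3, 0.06 without control 6 and 0.02 without the mixed column set. Of 14 tested head genes 12 were above 0 and 2 below, with a median of 0.12. At an unadjusted p under 0.05, 3 (21.4%) were higher, against 4.17% of all tested genes. The difference between head and body was not tested.

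Of the 4 members below 0, Rps15, a head protein at the decoding site, was the lowest. Controls ran from 3086 over 3714 to 4401 normalized CPM and MSNBA from 2759 over 3478 to 3944, so that the groups overlapped widely, with MSNBA 1 the lowest library. The log2 fold change was -0.14 (SE 0.099, edgeR adjusted p = 0.686). For Rps15 it was -0.0093 with depth in the model, -0.066 with thinned libraries, -0.078 without MSNBA 1 and -0.091 without control 2. Rpsa, the laminin-receptor protein of the platform, was at -0.08, Rps10, a head protein, at -0.08, and Rps27l at -0.07 (edgeR adjusted p = 0.854, 0.898 and 0.954). With each library left out Rpsa ran from -0.13 to -0.02, and without the mixed column set it was at -0.27 (edgeR adjusted p = 0.597). Rps10 was at 0.03 with depth in the model, -0.19 with thinned libraries and from -0.14 to -0.03 with each library left out. Rps27l was at -0.02 with depth in the model, -0.33 without the mixed column set and -0.44 with thinned libraries (edgeR adjusted p = 0.660). All 4 were above 0 in the fit without a low-count filter, in which the median of the 2614 genes itself was 0.14.

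**Figure D3:**
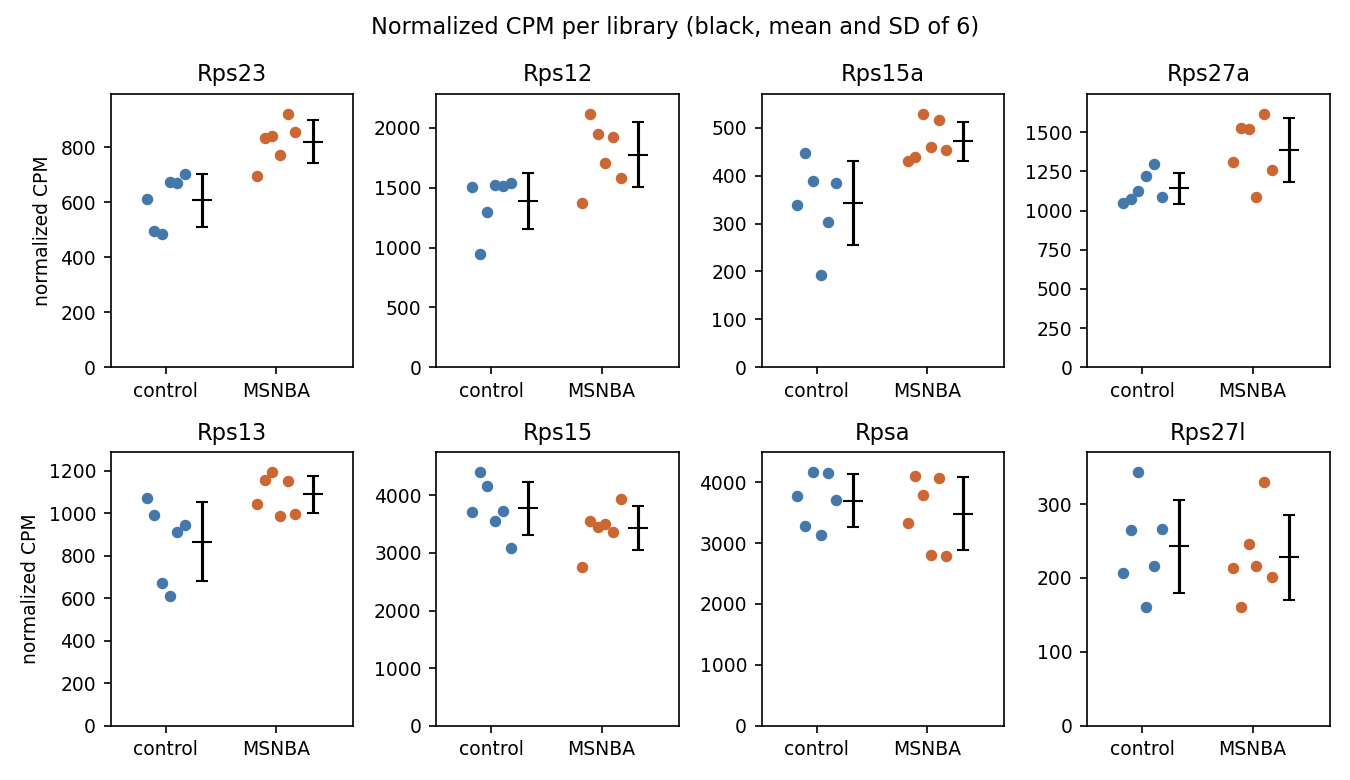
Each point is 1 library of 6 per group, in normalized CPM on a vertical axis from 0, for 8 members; the black mark is the mean with its SD. Rps23 overlaps only through MSNBA 1 at 695 and control 6 at 703, and Rps15, Rpsa and Rps27l overlap widely.

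The MSNBA libraries differed among themselves. Members above their own mean over the 12 libraries numbered 7 to 15 of 31 in the controls, and 24, 27, 19, 28 and 24 in MSNBA 2 to 6. In MSNBA 1, which alone holds 657251 counts, the number was 12, within the control range. Summed over all 33 members, the share of library counts was 4.95% ± 0.117 in controls and 5.40% ± 0.318 in MSNBA (SD, n = 6 per group). MSNBA 1 was at 4.94% (exact binomial 95% interval 4.89% to 4.99%) and MSNBA 4 at 5.09%, both inside the control range of 4.81% to 5.09%, while the other 4 ran from 5.40% to 5.67%. These intervals cover counting error only. Without MSNBA 1 the difference in share was 0.542 percentage points, against 0.450 with it, and without the mixed column set it was 0.260.

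**Figure D4:**
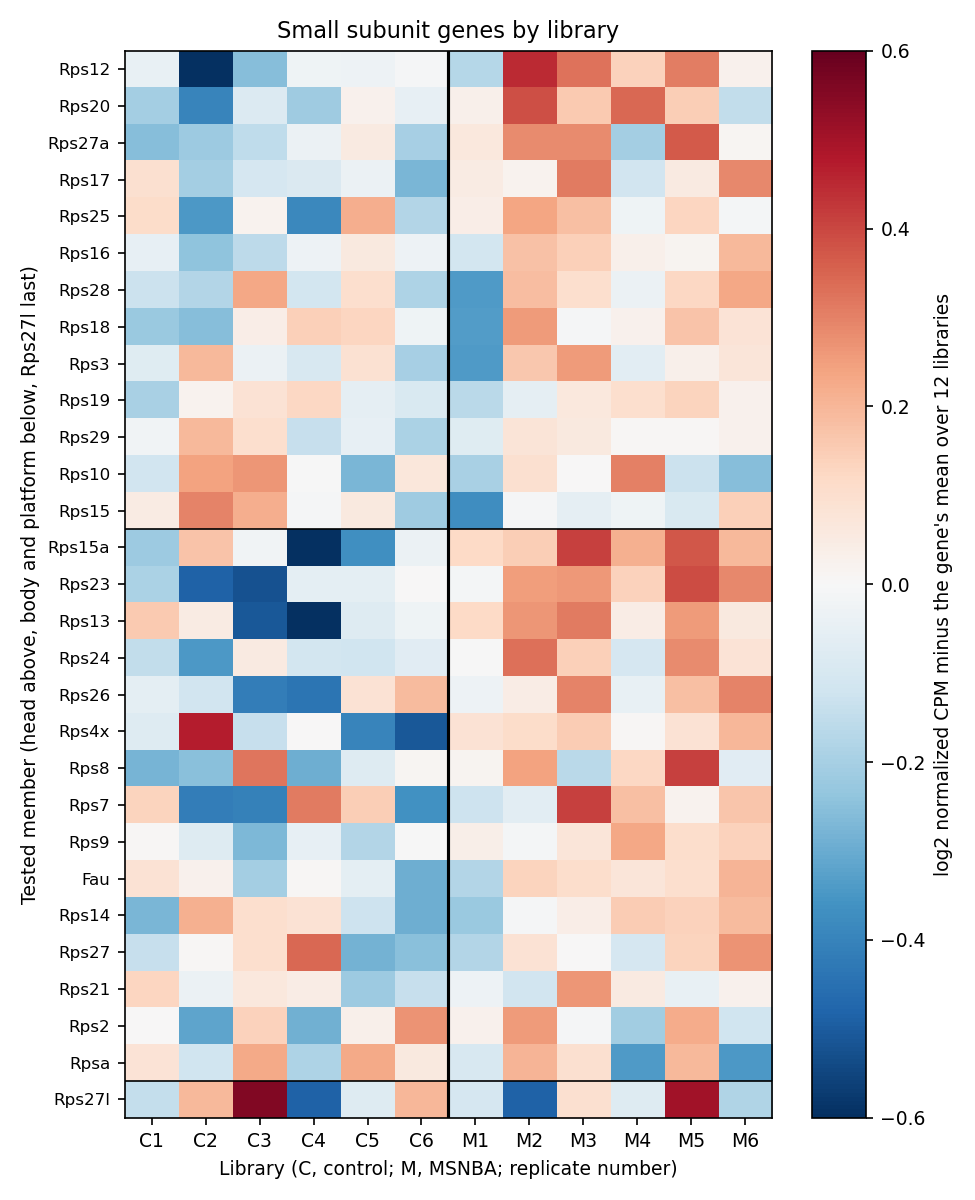
Rows are 29 tested members and columns the 12 libraries; colour is the log2 normalized CPM minus the mean of that gene over all libraries, with the scale ending at -0.6 and 0.6. MSNBA 2, 3, 5 and 6 are mostly red, with 24 to 28 of all 31 tested members above their mean, and MSNBA 1, with 12, looks like the controls.

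Since the deepest libraries were from MSNBA, depth was taken into account in a pair of fits. With the log2 library total as a covariate the member median was 0.20 and 10 members were higher at an unadjusted p under 0.05, against 4.59% of genes. With all libraries thinned to 59113 counts the median was 0.14 and 5 of 31 members were higher at that p, against 4.32% of 1087 genes.

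Proteins of the large (60S) subunit, which joins the small one to form the ribosome, were set beside the members. Of their 47 tested genes 41 were above 0 and 6 below, with a median of 0.15. At an unadjusted p under 0.05, 9 (19.1%) were higher, against 4.17% of all tested genes. Their median was 2990 counts, against 305 over all tested genes. The ratio of small to large subunit counts was 0.636 ± 0.0275 in controls and 0.637 ± 0.0204 in MSNBA (SD, n = 6 per group), and control 2 was the lowest, at 0.587. The groups overlapped in this ratio, and the difference between the subunits was not tested.

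**Figure D5:**
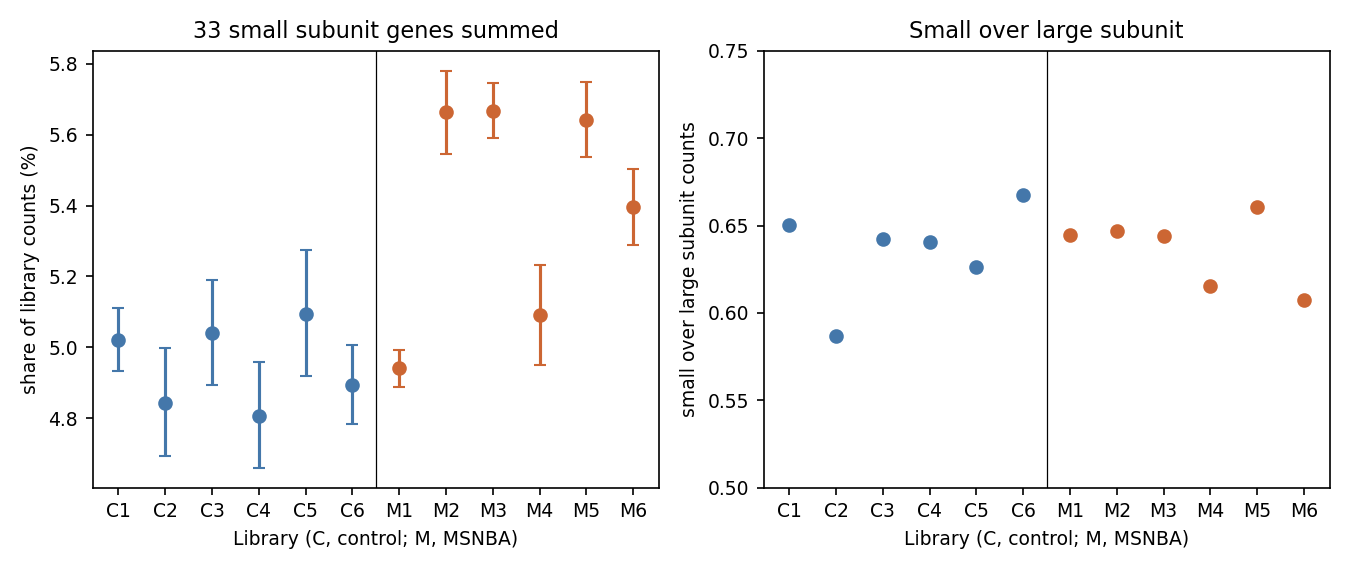
Left, the share of library counts taken by the 33 members, with exact binomial 95% intervals; right, the ratio of small to large subunit counts; both axes start above 0. MSNBA 2, 3, 5 and 6 lie from 5.40% to 5.67%, above all controls, while the ratio overlaps fully between groups.

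The copies outside the rule were looked at after their values were seen. Rps23rg1, a retrogene copy of Rps23, was at 0.46 on the log2 fold change scale (SE 0.19, edgeR adjusted p = 0.401), where Rps23 itself was at 0.42. It took 30.8% ± 5.83 of the summed counts of Rps23rg1 and Rps23 in controls and 30.5% ± 5.68 in MSNBA (SD, n = 6 per group). The Rps15a copies Rps15a-ps4 (82 counts in controls, 241 in MSNBA) and Rps15a-ps6 (98 and 246) were at 0.28 and 0.13 (edgeR adjusted p = 0.740 and 0.903). Rps27rt was at -0.13 (SE 0.14, edgeR adjusted p = 0.798) and Rps27 at 0.07, and with the copies summed Rps27 was at -0.0083. Rps27 alone was at 0.17 with depth in the model, 0.19 with thinned libraries, 0.16 without the mixed column set and from 0.016 to 0.15 with each library left out. Rps27l took 13.4% ± 3.43 of the counts of Rps27l and Rps27 in controls and 12.1% ± 2.67 in MSNBA. Rps3a1 and Rack1, small subunit proteins that the symbol rule leaves out, were at 0.01 and 0.03 (edgeR adjusted p = 0.991 and 0.960).

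Genes that build, bind or regulate the small subunit did not pass the adjusted threshold either. Of the 6 tested factors of 40S assembly, 1 was above 0 and 5 below, with a median of -0.15; Bysl, needed for 40S maturation, was at -0.61 (SE 0.20, edgeR adjusted p = 0.229). Of the 17 tested initiation factors that bind the 40S subunit, 15 were above 0 and 2 below, with a median of 0.12; Eif3d, a subunit of the eIF3 complex, was at 0.61 (SE 0.26, edgeR adjusted p = 0.431).

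Among 14 other tested TOP mRNAs, 9 were above 0 and 5 below, with a median of 0.06. Of these, 3 (21.4%) were higher at an unadjusted p under 0.05, against 4.17% of all tested genes. Naca, a chaperone of nascent chains, was at 0.51 (edgeR adjusted p = 0.290), while Pabpc1, the poly(A)-binding protein, was at -0.22. Of the list of S6 kinases and TOP regulators 7 genes were tested, 1 above 0 and 6 below, with a median of -0.21. The S6 kinase genes Rps6kb1 and Rps6kb2, and Mtor, had too few counts to be tested. Tsc2, which restrains mTOR complex 1, was at -0.61 (SE 0.25, edgeR adjusted p = 0.401). The others below 0 were Larp1 (-0.26), Larp4 (-0.22), Akt1 (-0.21), Rps6ka3 (-0.13) and Rheb (-0.06). The 1 above 0 was Eif4ebp1, at 0.33 (edgeR adjusted p = 0.586). Of the p53 list 3 genes were tested, 1 above 0 and 2 below, and 1 of the 2 was the member Rps27l, given above.

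The promoters of the members were searched for short words on both strands. The part of such words in the fold changes was not tested. RefSeq gave 29 promoters, 250 bases before to 50 after the start, for 24 members. CCGGAA, the core of the site bound by ETS factors, was in 14 of 29 member promoters (48.3%) and in 14.9% of all 32851 promoters. GGGCGG, the GC box, was in 16 of 29 (55.2%) against 35.7%, and TATAAA in 2 of 29 (6.90%) against 13.6%. A match of one word may overlap a match of another. Of the 9 members higher at an unadjusted p under 0.05, 6 had an entry and 1, Rps26, held CCGGAA. Among the 18 other members with an entry 12 held it. Both the 18 and the 12 include Rps6, which was not tested. GGGCGG was in 3 of the 6 against 10 of the 18, and TATAAA in 0 against 2. This split was made after the values were seen and has no test.

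The 100 bases before the start are shown for Rps23 and Rps13, from the 9, and for Rps21 and Rps7, with log2 fold changes of 0.05 and 0.18, to set promoters with and without CCGGAA side by side (GRCm38.p6). Capitals mark CCGGAA or GGGCGG on either strand.
Rps23, chr13:90923022-90923121, plus strand: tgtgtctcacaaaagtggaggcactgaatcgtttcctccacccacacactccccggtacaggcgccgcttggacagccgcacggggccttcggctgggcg
Rps13, chr7:116334191-116334290, minus strand: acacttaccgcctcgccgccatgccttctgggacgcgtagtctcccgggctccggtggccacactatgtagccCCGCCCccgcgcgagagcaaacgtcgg
Rps21, chr2:180257279-180257378, plus strand: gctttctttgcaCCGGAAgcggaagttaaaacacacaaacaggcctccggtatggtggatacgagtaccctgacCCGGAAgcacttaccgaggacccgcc
Rps7, chr12:28635954-28636053, minus strand: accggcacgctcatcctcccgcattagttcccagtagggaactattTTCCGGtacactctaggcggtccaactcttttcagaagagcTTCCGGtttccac
Rps21 and Rps7 each hold CCGGAA or its reverse complement more than once in this window, Rps13 holds the reverse complement of GGGCGG, and Rps23 holds neither within these 100 bases. A word match is a description of the letters and not of binding.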

How the data were processed

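The members and gene lists were chosen with earlier results of these data known. The authors deposited raw counts per gene symbol for 12 libraries; BWA 0.7.4.4 and mm10 are named in the submitters' processing notes. The name of the deposited table points to uniquely aligned reads counted by molecular identifier, but no source used here gives the counting program, annotation or strand. Groups were taken from the labels.

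Genes were filtered with filterByExpr, scaled by TMM factors and tested with the robust edgeR quasi-likelihood F test (edgeR 4.0.16, R 4.3.3), treatment being the only term. Two-sided p-values were adjusted over the 2614 tested genes (Benjamini-Hochberg, threshold 0.05). Standard errors were taken as the log2 fold change divided by the root of F. The biological coefficient of variation common to all genes was 14.3%. Normalized CPM are over the counts of tested genes with TMM factors; pooled CPM and shares are over full library totals. Log2 CPM used a prior count of 2. Alternatives were DESeq2 1.42.0 with default filtering, limma-voom (limma 3.58.1, robust), other scaling factors, other filters, depth as a covariate, thinning, a replicate block, each library left out and the mixed column set left out. The fits were tested on simulated data with known changes. All of these were larger than any member's log2 fold change in the reported fit. Recovery of changes as small as theirs was not tested.

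Named members are Rps23, the 8 higher and 4 lower members with the lowest p, those with the most and fewest counts, the pairs Rps27 and Rps27l, and Rps4x and Rps4l, and those not tested. The values of 2 members are not reported here singly, though sums, counts and medians include them. Other genes were named after their values were seen. Coding sequences are from GENCODE M21 and promoters and positions from RefSeq; the read-through transcript of Rps10 was left out of the word search.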

Additional observations from a re-analysis of the deposited data

How the results depend on the processing

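The count of members past the adjusted threshold was 0 in every fit run. Members higher at an unadjusted p under 0.05 numbered 9 of 31 in the reported fit, against 4.17% of all genes tested. With no filter on counts they numbered 19 of 33, against 3.81%. When libraries were thinned to 1 depth they numbered 5 of 31, against 4.32%. Without the mixed column set (an alternative chosen after seeing the data, with 8 libraries) they numbered 3 of 31, against 4.17%. With each library left out they numbered 7 to 10 of 31, against 3.54% to 5.06%. The member median was 0.17, 0.32 without a filter, where the median of the 2614 genes of the reported test was 0.14, and 0.11 (without control 6) to 0.19 (without MSNBA 1) with each library left out. The difference in share was 0.450 percentage points and ran from 0.397 to 0.542 with each library left out. The difference in the small to large ratio was 0.0010 and ran from -0.0088 to 0.0074, with either sign, and -0.018 without the mixed column set. Single genes changed sign without a filter (Rps15 0.014, Rpsa 0.068, Rps10 0.069, Rps27l 0.079), with depth as a covariate (Rps10 0.029), with copies summed, an alternative chosen after seeing the data (Rps27 -0.0083), and for Rps27l without control 3 (0.033) or MSNBA 2 (0.00025), its range with each library left out being -0.18 to 0.033. The cause of these changes was not tested. Replicate numbers are shared by the groups. Residuals of same-numbered libraries correlated from -0.23 to 0.48 over 1672 genes, over 0.1 in 3 of 6 pairs. Of the 12 libraries, 4 correlated best with their own number. Whether same-numbered samples were paired is not in the labels, and these correlations cannot settle it. With a replicate block 9 members were higher at an unadjusted p under 0.05, against 4.59% of genes, the median was 0.16, and 3 genes of all tested were called, against 2 without it.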
